A study of Mus musculus with 8 samples.

Results

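The cornified envelope genes of mouse were compared between the cornea and the limbus by RNA sequencing. They are 10 genes, Sprr1a, Sprr1b, Sprr3, Ivl, Lor, Tgm1, Tgm3, Cnfn, Evpl and Ppl, found by their exact symbols among the 23420 rows of the deposited table that name a gene. The rule uses the symbols and no measured value. Both tissues came from wild type C57BL/6J mice that were 8 weeks old, with no transgene and no treatment given in the labels. The cornea group is the corneal button, the tissue inside the limbus, and the limbus group is the ring of tissue where the cornea meets the sclera and conjunctiva. Rims were cut free of conjunctiva under a microscope, the tissue of several eyes was pooled, and stranded libraries were made from total RNA of epithelium together with stroma. The labels list 4 samples per tissue, named like sequencing lanes, while the table was built from 1 cornea library and 1 limbus library. There are therefore no replicates, no test was made, and each interval below covers counting error only.

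The cornified envelope is a layer of cross-linked protein that replaces the plasma membrane of the outermost cells of the epidermis. Its scaffold is laid down first by envoplakin and periplakin, which attach to desmosomes and keratin filaments. Involucrin, loricrin and the small proline-rich proteins are then fastened to the scaffold by transglutaminases, enzymes that join glutamine to lysine side chains. The wet surface of the eye does not normally form a horny layer, although its stratified epithelium uses several of the same proteins, and small proline-rich proteins are known to increase there in dry and inflamed states.

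The libraries held 26104317 corneal and 21182025 limbal reads on named genes. These read numbers (reads or read pairs, which the table does not tell apart) were derived from the deposited means and are not a count table. For Sprr1a, Ivl, Tgm1, Cnfn, Evpl and Ppl a mean allows several pairs of read numbers, and the deposited fold change and its standard error decided which pair was used. A normalized read is a read divided by the size factor of its library, 1.034 for the cornea and 0.9674 for the limbus. All log2 ratios are limbus over cornea, so a positive value is higher in the limbus. The labels were checked against lists of markers, which were chosen with earlier results of these data known. In reads per 1000000 reads (RPM), the corneal epithelium list summed to 80339 in the corneal library and 28265 in the limbal one, and the conjunctival and limbal epithelium list to 5633 and 34558. The epidermis list was low in both, at 20.9 RPM (cornea) and 40.5 RPM (limbus). Of its 10 genes in the table, Krt2 had 2 corneal and 1 limbal reads and Flg2 was listed at 0, whereas Krt10 had 232 and 254 reads, Krt1 131 and 190, Sbsn 77 and 222, and Dmkn 31 and 115. Of the 13 conjunctival and limbal genes measured, 11 were more than 2-fold higher in the limbal library, beside 15.5% of all genes. The goblet cell mucin Muc5ac had 1 read in each library. The part of conjunctival or skin cells in the results was not tested. In whole tissue, fewer cells of a type and less RNA per cell cannot be told apart.

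Of the 10 genes, 5 belong to the epidermal differentiation complex, a cluster of barrier genes on mouse chromosome 3. On GRCm38 they lie on the minus strand in the order Lor (chr3:92080271-92083142), Sprr1b (chr3:92436809-92438789), Sprr3 (chr3:92456502-92458720), Sprr1a (chr3:92483952-92485895) and Ivl (chr3:92570902-92573735). Each has 2 exons. Only 85006 bases separate Sprr1a from Ivl, and 25231 separate Sprr3 from Sprr1a. The other genes are scattered, with Tgm3 at chr2:130012349-130050399 on the plus strand and the rest on the minus strand: Cnfn at chr7:25367620-25369724, Evpl at chr11:116220559-116238077, Tgm1 at chr14:55700009-55713926 and Ppl at chr16:5086291-5132421. An antisense gene, Gm49067, overlaps Tgm1 and a microRNA gene, Mir6339, overlaps Tgm3. Neither was analysed here, and whether counting used strand is not given in the sources used here. No 75-base window of the longest transcript of any of the 10 genes occurred in a transcript of another gene, so shared exonic sequence of that length is absent among the annotated transcripts.

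The promoters below belong to Sprr1a, Ivl, Sprr1b and Lor, genes of 1 cluster whose levels differ, and to Cnfn, the gene with the largest ratio. That of Sprr3, which lies in the same cluster, is not printed. They are the 250 bases before the transcription start of RefSeq on GRCm38.p6, on the gene's own strand, and capitals mark the letters TGANTCA, which include the binding site of the AP-1 factors, and TATAAA, the TATA box. The windows are chr3:92485882-92486131 for Sprr1a, chr3:92573736-92573985 for Ivl, chr3:92438780-92439029 for Sprr1b, chr3:92083143-92083392 for Lor and chr7:25369725-25369974 for Cnfn, all on the minus strand.
Sprr1a: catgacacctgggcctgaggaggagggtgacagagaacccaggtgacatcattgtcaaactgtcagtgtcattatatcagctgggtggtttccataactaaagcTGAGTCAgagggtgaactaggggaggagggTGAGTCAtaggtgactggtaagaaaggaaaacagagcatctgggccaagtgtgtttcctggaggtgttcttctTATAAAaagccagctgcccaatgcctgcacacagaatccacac
Ivl: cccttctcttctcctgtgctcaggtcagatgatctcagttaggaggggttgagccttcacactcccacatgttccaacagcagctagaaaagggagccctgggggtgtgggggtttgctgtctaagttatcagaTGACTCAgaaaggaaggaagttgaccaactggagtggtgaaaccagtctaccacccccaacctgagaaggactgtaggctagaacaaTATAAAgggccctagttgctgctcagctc
Sprr1b: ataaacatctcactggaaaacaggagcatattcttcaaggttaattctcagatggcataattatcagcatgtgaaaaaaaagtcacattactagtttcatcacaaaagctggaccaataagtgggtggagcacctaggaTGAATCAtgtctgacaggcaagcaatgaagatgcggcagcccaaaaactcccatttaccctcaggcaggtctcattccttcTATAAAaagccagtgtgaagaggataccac
Lor: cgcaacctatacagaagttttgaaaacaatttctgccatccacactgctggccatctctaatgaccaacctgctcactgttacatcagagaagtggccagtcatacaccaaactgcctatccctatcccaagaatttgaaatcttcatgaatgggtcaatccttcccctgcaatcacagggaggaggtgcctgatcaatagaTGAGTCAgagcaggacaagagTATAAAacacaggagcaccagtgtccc
Cnfn: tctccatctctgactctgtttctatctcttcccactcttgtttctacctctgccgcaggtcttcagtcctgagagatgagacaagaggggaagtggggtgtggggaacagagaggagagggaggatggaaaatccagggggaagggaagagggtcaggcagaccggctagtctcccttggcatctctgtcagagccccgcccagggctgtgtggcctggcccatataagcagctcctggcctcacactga
The RefSeq table used here gave promoters for 8 of the 10 genes, in 9 entries, without Evpl and Ppl. TGANTCA, which reads the same on both strands, was in those of 4 genes, Sprr1a, Ivl, Sprr1b and Lor, against 6.75% of 32851 promoter windows of the same length. In Sprr1a it occurred in 2 places, starting 146 and 116 bases before the start, as in 0.338% of all windows. In Ivl it started 116 bases, in Sprr1b 111 bases and in Lor 48 bases before the start. TATAAA, searched on the gene's strand, was in 6 genes (the same 4 with Sprr3 and Tgm3) against 7.59% of all windows. Neither run of letters was found in the windows of Cnfn or Tgm1. The middle letter differed, with TGAGTCA in Lor and at both places in Sprr1a, TGACTCA in Ivl and TGAATCA in Sprr1b. Of these genes, Sprr1a and Ivl had ample reads, and Sprr1b and Lor had almost none. Sprr3, of the same cluster, also had almost no reads, and its window held TATAAA but no TGANTCA. Whether these letters bear on the levels was not tested.

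The levels spanned a wide range, with the scaffold genes by far the highest. Ppl, which encodes periplakin, had 62447 corneal and 51416 limbal reads, or 8764 and 7711 normalized reads per kb of exon. Evpl, which encodes envoplakin, had 43664 and 41261 reads, or 6616 and 6681 per kb. Together they took 97.1% (cornea) and 97% (limbus) of the reads of the 10 genes. At the other end were 4 genes with almost no reads. Tgm3, an epidermal and hair follicle transglutaminase, had 5 corneal and 4 limbal reads. Sprr3 had 3 and 1, and loricrin (Lor), the main envelope protein of the epidermis, had 2 and 1. Sprr1b, the nearest relative of Sprr1a, was listed at 0 in both libraries, which allows up to 0.115 RPM (cornea) and 0.142 RPM (limbus), taking 3 reads as the limit. The table is not one of counts, and a 0 in it could be a failed estimate. None of 20 housekeeping genes looked up was at 0. These had at least 431 corneal and 269 limbal reads, so they cannot show whether a gene with few reads would be lost.

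**Figure D1:**
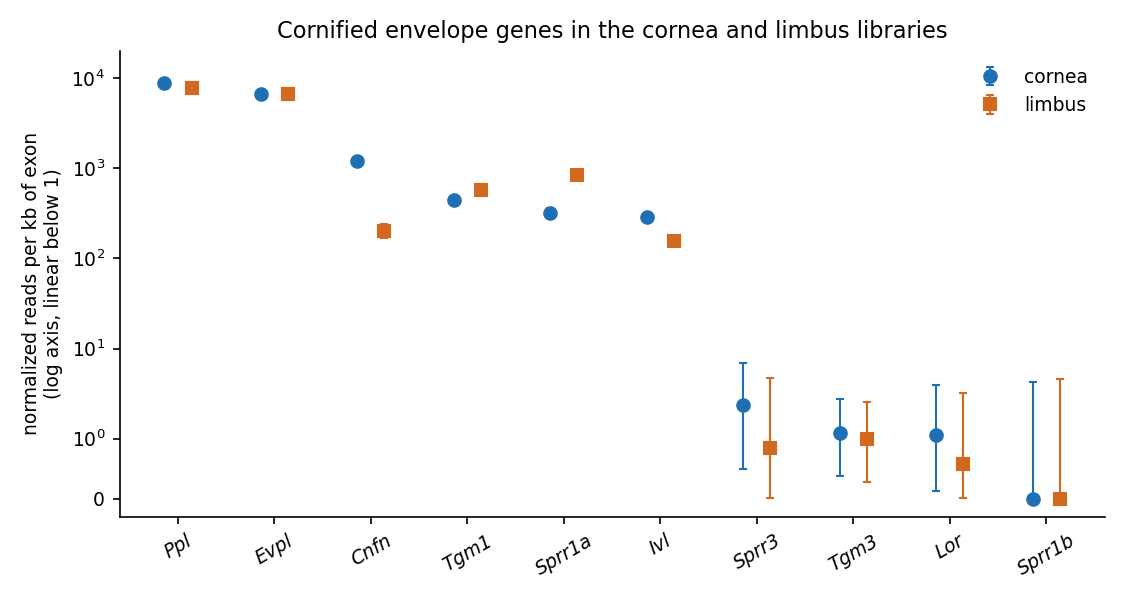
Level of each of the 10 genes in the cornea (circles) and limbus (squares) libraries, in normalized reads per kb of exon on a log axis that is linear below 1. Bars are exact Poisson 95% intervals and cover counting error only. Ppl and Evpl lie at 6616 or above in both libraries, 4 genes lie between 154 and 1200, and Sprr3, Tgm3, Lor and Sprr1b lie at 2.37 or below.

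Between these ends lay 4 genes whose order changed with the tissue. In the cornea the order per kb was Cnfn (1200), Tgm1 (440), Sprr1a (318) and Ivl (285), and the intervals of Sprr1a and Ivl overlapped. In the limbus it was Sprr1a (841), Tgm1 (568), Cnfn (201) and Ivl (154), and the intervals of Cnfn and Ivl overlapped. Sprr1a and Cnfn had changed places around Tgm1. The intervals of the 4 lowest genes overlapped their neighbours in both libraries, so no order is given among them. The order was the same in both libraries when the longest transcript replaced the union of exons.

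Of the 10 genes, 3 had too few reads for a ratio (Sprr3 and Lor with 3 reads or fewer per library, Sprr1b at 0), and 7 had more than 3 in each. Of these 7, 1 was more than 2-fold higher in the limbus and 1 more than 2-fold higher in the cornea. Among all 13859 genes measured in this way, 15.5% were past 2-fold in the limbus and 8.99% in the cornea, so the number of cornified envelope genes past 2-fold was near the background. The other 5 lay within 2-fold, as did 75.6% of all genes. Beyond counting error, 2 of the 7 lay on the limbal and 3 on the corneal side, beside 33.2% and 40.6% of all genes. Their median log2 ratio was −0.18, and that of all genes was −0.05. The genes are therefore described singly.

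**Figure D2:**
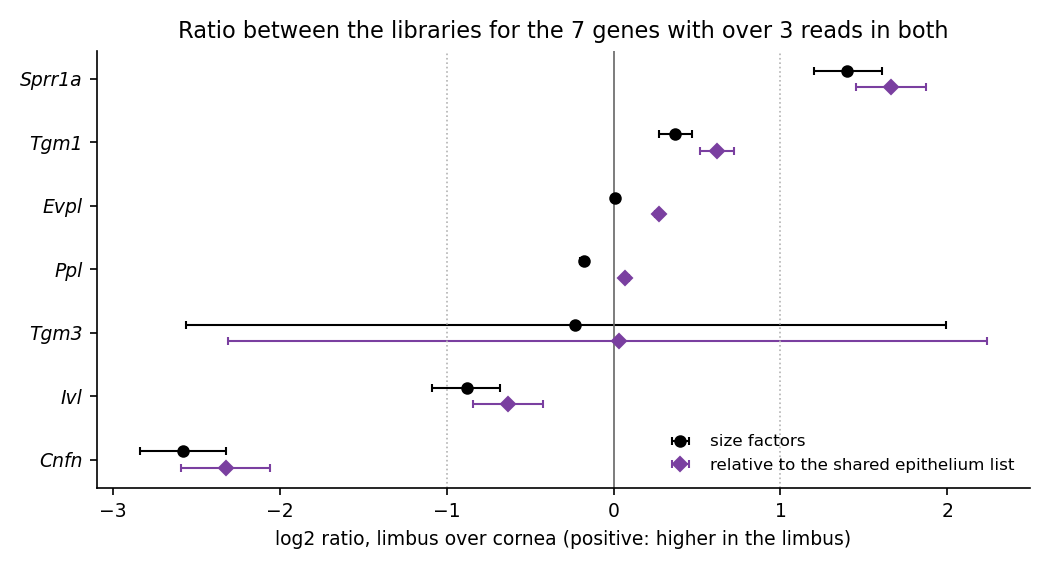
Log2 ratio of limbus over cornea for the 7 genes with over 3 reads per library, with exact 95% intervals for counting error. Circles use the size factors of the table and diamonds are relative to the median of 15 shared epithelial genes. Sprr1a (1.40 and 1.66) and Cnfn (−2.58 and −2.32) lie beyond the dotted 2-fold lines on both scales, while Ppl crosses 0 between the scales (−0.18 and 0.07).

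Sprr1a lay furthest to the limbal side. It encodes a small proline-rich protein that serves as a cross-linked bridge in the envelope and is known to be induced in stressed epithelium. It had 265 corneal and 656 limbal reads, or 10.2 and 31 RPM. The limbus was 2.65-fold higher (log2 ratio 1.40, 95% interval 1.20 to 1.61). Of 11806 genes averaging 50 normalized reads or more, 8.74% lay further to the limbal side. The other small proline-rich genes were close to silent. Of 11 in the table, 7 were listed at 0 and only 2 had over 3 reads per library, and the list summed to 20 corneal and 14 limbal reads. Sprr2a1 and Sprr2a2 share 94.3% and 94.6% of their 75-base windows with near copies, so reads from them could have been lost to the copies or left uncounted. Sprr1a shared none.

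Cnfn stood at the corneal end. It encodes cornifelin, a small cysteine-rich protein of the envelope. It had 892 corneal and 140 limbal reads, or 34.2 and 6.61 RPM. The cornea was 5.96-fold higher (log2 ratio −2.58, 95% interval −2.84 to −2.32). Among the 11806 genes, only 50 lay further to the corneal side. For scale, the corneal keratin Krt12 had a log2 ratio of −2.19, with 1137735 corneal and 233324 limbal reads, a smaller difference than that of Cnfn.

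Ivl, which encodes involucrin, an early substrate of the envelope, was also higher in the cornea. It had 566 corneal and 287 limbal reads, or 21.7 and 13.5 RPM. The difference was 1.85-fold (log2 ratio −0.88, 95% interval −1.09 to −0.68), within 2-fold but beyond counting error. On the corneal side 11.5% of the 11806 genes lay further out. Relative to the shared epithelium list, whose median was −0.25, the ratio of Ivl was −0.63.

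The scaffold genes and the transglutaminase gene Tgm1 lay within 2-fold, although Tgm1 was higher in the limbus beyond counting error. Evpl had nearly equal normalized reads, 42239 corneal and 42653 limbal, with a log2 ratio of 0.01 (95% interval −0.01 to 0.03). Ppl had 60409 and 53151, a log2 ratio of −0.18 (−0.20 to −0.17). This became 0.02 when libraries were scaled to total reads and 0.07 relative to the shared epithelium list. The direction of Ppl thus depended on the scaling. For Ppl another pair of read numbers was nearly as close, and its interval does not cover that choice. Tgm1, the membrane-bound keratinocyte transglutaminase, had 1437 corneal and 1737 limbal reads. It was 1.29-fold higher in the limbus (log2 ratio 0.37, 0.27 to 0.47), and 0.57 and 0.62 under the same scalings. For Tgm3, with a log2 ratio of −0.23, the interval ran from −2.56 to 1.99, and no difference was detectable at this depth.

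Scaling to total reads moved all log2 ratios by 0.21, and centring on the shared epithelium list moved them by 0.25. The 15 genes of that list ran from −1.31 to 0.40, and the intervals do not cover this spread. Ratios between genes inside 1 library do not depend on the choice of scaling. Per kb of exon, Sprr1a was at 1.12 times Ivl in the cornea and 5.45 times Ivl in the limbus, a 4.88-fold change (95% interval 3.99 to 5.97). Between Sprr1a and Cnfn the change was larger. Sprr1a was at 0.265 of Cnfn in the cornea and at 4.18 times Cnfn in the limbus, a 15.8-fold change (12.6 to 19.8). Cnfn was at 4.21 times Ivl in the cornea and 1.3 times in the limbus, so the 2 genes on the corneal side also differed between themselves, by 3.23-fold (2.57 to 4.06). The scaffold partners stayed together. Evpl was at 0.755 of Ppl in the corneal library and 0.866 in the limbal one, a change of 1.15-fold (1.13 to 1.17). Tgm1 was at 0.0502 of Ppl in the cornea and at 0.0736 of it in the limbus, a 1.47-fold change (1.37 to 1.58). The intervals of these ratios to Ppl do not cover the choice of its read numbers, for which another pair was nearly as close.

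**Figure D3:**
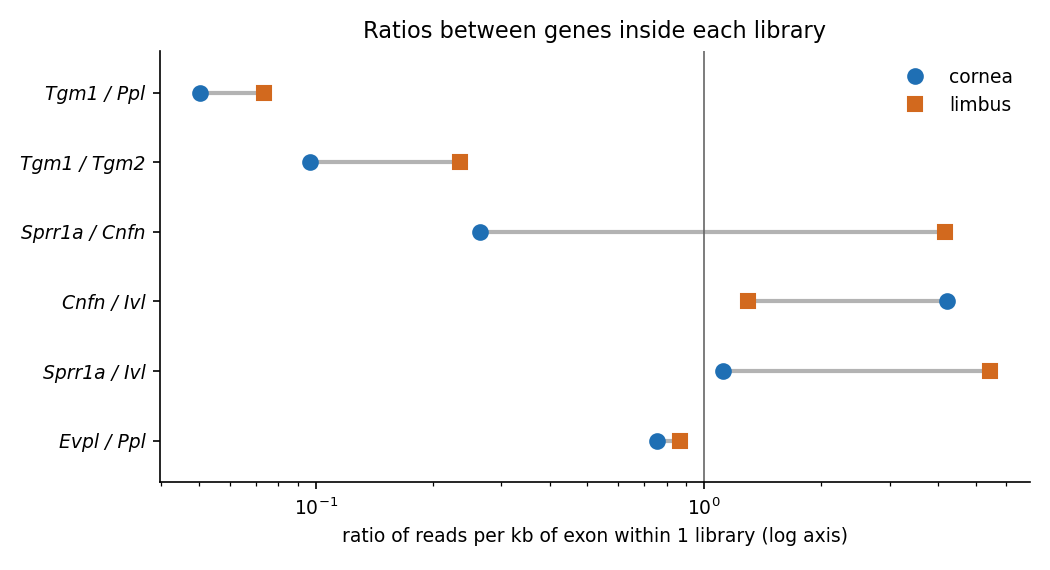
Ratio of reads per kb of exon between 2 genes of the same library, for the cornea (circles) and the limbus (squares), on a log axis with a line at equality. Sprr1a over Cnfn runs from 0.265 in the cornea to 4.18 in the limbus, whereas Evpl over Ppl stays between 0.755 and 0.866.

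The position of the genes in the epidermal differentiation complex was then followed from S100a1 to S100a11 (chr3:90511034-93526287). The table names 67 genes there, of which 30 were listed at 0 and 24 passed 3 reads in each library. Among those 24, 7 were over 2-fold higher in the limbus and 6 over 2-fold higher in the cornea, beside 15.5% and 8.99% of all genes. Their median was 0.08. Between the Sprr2 genes and Kprp only Sprr1a and Ivl had enough reads for a ratio. Both were past counting error and pointed in opposite directions. Beyond Ivl came genes of the late cornified envelope list, which holds Kprp and Crct1 beside the Lce genes. Those with a ratio were higher in the cornea. Lce3a had 1820 corneal and 114 limbal reads (14.9-fold), and Kprp, which encodes a keratinocyte proline-rich protein, had 473 and 47 (9.42-fold). Lce3b, with 118 and 15 reads, and Crct1, with 216 and 40, were 7.36-fold and 5.05-fold higher in the cornea.

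All 4 measured genes of the late cornified envelope list were past 2-fold in the cornea, beside 8.99% of all genes. They were Lce3a and Lce3b together with Kprp and Crct1, which are not Lce genes. The median log2 ratio of the 4 was −3.06. Of the 23 genes of the list in the table, 13 were listed at 0. Among them were most of the Lce1 genes, which in skin are typical of the epidermis. Lce3f, which was picked out after seeing its values, had 53 corneal and 3 limbal reads, a log2 ratio of −4.05 (95% interval −6.37 to −2.42). The Lce3 genes resemble each other, and 9.47% of the 75-base windows of Lce3a, 6.15% of those of Lce3b and 45.6% of those of Lce3f recur in other Lce3 genes, so the division of reads among them is uncertain. Cnfn lay on the corneal side like the Lce3 genes that have a ratio, but Lce3a was further out. Per kb, Cnfn was at 0.374 of Lce3a in the cornea and 0.938 in the limbus.

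**Figure D4:**
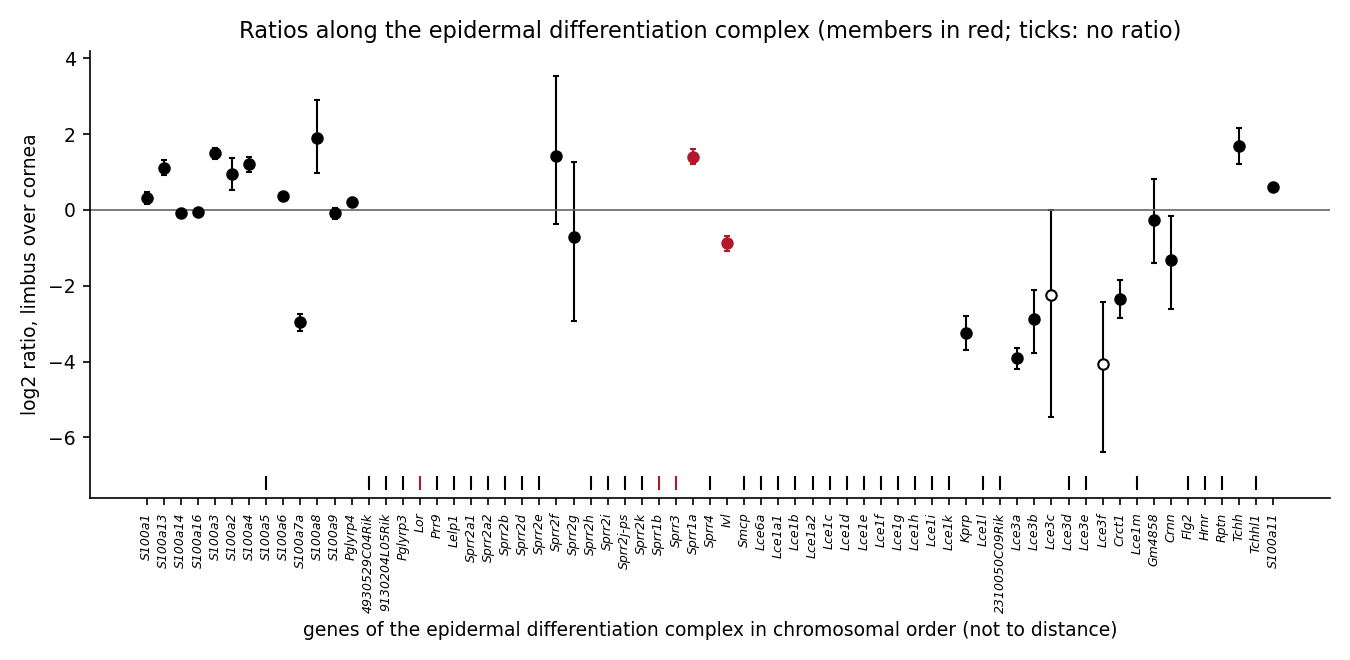
Log2 ratio of limbus over cornea for 67 genes of the epidermal differentiation complex in chromosomal order, with 95% intervals for counting error. Red marks the cornified envelope genes, open circles are genes with 1 to 3 reads in 1 library, and ticks at the foot are genes without a ratio. Sprr1a (1.40) and Ivl (−0.88) lie on opposite sides of 0. Kprp, Crct1 and those Lce3 genes that have a ratio lie together at −2.23 or below. The gene at −2.23, an open circle, has an interval that reaches 0.00.

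At both ends of the complex the S100 genes, which encode small calcium-binding proteins, were the most abundant. S100a6 had 118412 corneal and 144049 limbal reads, and S100a11 had 21366 and 30318. S100a7a was apart from its neighbours, with 1608 corneal and 193 limbal reads (log2 ratio −2.96). On the limbal side S100a3 (1.49), S100a4 (1.21) and S100a13 (1.11) were past 2-fold. In the S100-fused family the hair and tongue protein gene Tchh had 51 corneal and 153 limbal reads (log2 ratio 1.68). The only other gene measured, Crnn, which falls outside the naming rule, lay on the corneal side with 24 and 9 reads (−1.32, 95% interval −2.61 to −0.16), and 2 of the 6 genes in the table were listed at 0.

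Among the other transglutaminases, 3 of 6 could be measured. Tgm2, the tissue transglutaminase, was the most abundant, with 21674 corneal and 10779 limbal reads (log2 ratio −0.91). Tgm5, an epidermal enzyme, had 964 and 1416 reads (0.65). F13a1, the coagulation factor XIII subunit that macrophages make, had 9 and 97 reads (3.53). Per kb, Tgm1 was at 0.0966 of Tgm2 (cornea) and 0.235 (limbus), a 2.43-fold change. Tgm1 and Tgm5 were closer to each other, at ratios of 1.49 (cornea) and 1.22 (limbus).

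All 6 other plakin and scaffold genes lay within 2-fold, as did 75.6% of all genes, and their median was −0.09. Desmoplakin (Dsp), to which envoplakin and periplakin bind in the desmosome, had 88716 corneal and 46876 limbal reads (log2 ratio −0.82). Plec had 9321 and 12644 (0.54). Relative to Dsp, Evpl was 1.79-fold and Ppl 1.56-fold higher in the limbus than in the cornea. The near-equal level of the envelope scaffold was thus not shared by desmoplakin, but it was not particular to the scaffold either. In the same list Macf1 (−0.02) and Dst (−0.15) were about as even, while Kazn (−0.46) lay further to the corneal side.

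The proteases and inhibitors of cornification showed 3 of 14 measured genes past 2-fold in the cornea, beside 8.99% of all genes. None of the 14 was past 2-fold in the limbus. Klk13, a kallikrein protease gene without a corneal read and picked out after seeing its values, had 81 limbal reads. Taking 3 reads as the corneal limit, it was 28.9-fold higher in the limbus, a value that leaves out the counting error of the limbal reads. The inhibitor gene Spink7 had 449 corneal and 33 limbal reads (12.7-fold), and corneodesmosin (Cdsn), an adhesion protein of cornified cells, had 154 and 14 (10.3-fold). Serpinb5 had 18216 and 6155 (2.77-fold). The most abundant gene of the list, the aspartic protease Asprv1, had 148586 normalized corneal and 149008 limbal reads, as even as Evpl. Of the 10 measured barrier lipid genes, 1 was past 2-fold in the cornea, beside 8.99% of all genes. It was Cyp4f39, with 73 corneal and 31 limbal reads (−1.14). On the limbal side Aloxe3, a lipoxygenase gene picked out after seeing its values, had 1 corneal and 12 limbal reads (log2 ratio 3.68, 95% interval 0.92 to 9.10). The ceramide synthase gene Cers3 had 2018 and 1792 (−0.08).

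Of 21 measured transcription factors of epithelial differentiation, 3 were past 2-fold in the cornea and 1 in the limbus. Among all genes these shares were 8.99% and 15.5%. On the corneal side, Klf4 had 26458 corneal and 10248 limbal reads (log2 ratio −1.27), and Trp63 had 8737 and 3929 (−1.06). Relative to the shared epithelium list Trp63 was at −0.80, within 2-fold. Maf was on the other side, with 46 and 138 reads (1.68). Elf3, among the most abundant, had 20108 and 26422 (0.49). The median over the 21 was −0.07.

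**Figure D5:**
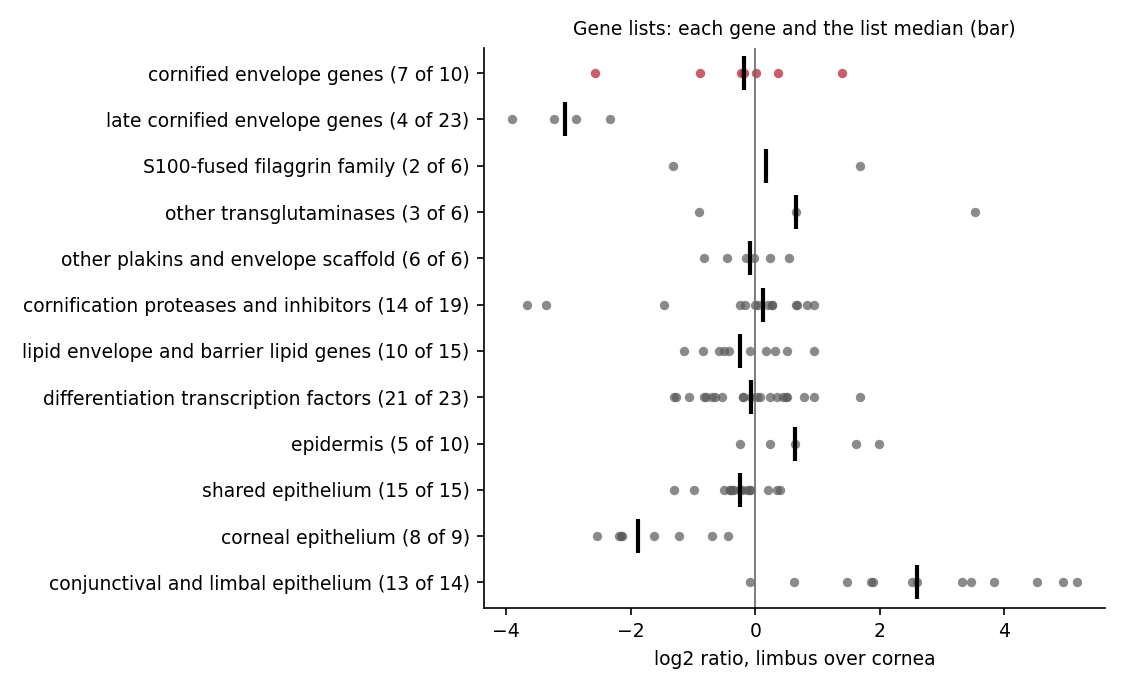
Log2 ratio of limbus over cornea for each gene with over 3 reads per library (points) and the median of its list (bars), with the number of genes plotted of those in the table in brackets. The cornified envelope genes (red) spread from −2.58 to 1.40 around a median of −0.18. The genes of the late cornified envelope list, Kprp and Crct1 included, lie at −2.34 or below.

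The marker lists moved with the tissue as well, and they frame the ratios of the cornified envelope genes. The corneal epithelium list had a median of −1.88 over 8 genes and the conjunctival and limbal list a median of 2.59 over 13. Cnfn (−2.58) lay just past the lower end of the first, which ran from −2.55 to −0.44. Sprr1a lay inside the range of the second, −0.09 to 5.16, below its median. Both ranges are wide, and Ivl (−0.88) lay inside the first, and Tgm1 (0.37) and Evpl (0.01) inside the second. Ppl (−0.18) and Tgm3 (−0.23) lay in neither. Of the epidermis list, 5 of 10 genes could be measured, with a median of 0.63. Of these, 2 were past 2-fold in the limbus, beside 15.5% of all genes. They were Dmkn (1.99) and Sbsn (1.62), on the same side as Sprr1a. The suprabasal keratins Krt1 (0.63) and Krt10 (0.23) and the gene Calm4 (−0.25) lay within 2-fold. Krtdap, picked out after seeing its values, had 2 corneal and 19 limbal reads (log2 ratio 3.34, 95% interval 1.29 to 6.49). The part that the mix of corneal, conjunctival and epidermal cells had in the ratios of Sprr1a and Cnfn was not tested.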

How the data were processed

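RNA sequencing of corneal buttons and limbal rims was analyzed from 1 table. The authors trimmed adaptors and mapped reads with CLC Genomics Workbench to GRCm38 (mm10), and their methods name the trimmed mean of M-values. The deposited values are a mean normalized signal per gene, a log2 fold change of the tissues with its standard error, and p-values with adjusted p-values. The p-values were not used here. The deposited log2 columns were used only to place read numbers, and their values are not reported. The column of accession numbers did not match the gene column and was not used.

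The table has 40904 rows, 17484 of which name no gene and were left out. Of 23420 named genes, 5978 are listed at 0. The other 17442 means decompose into whole reads of 2 libraries, 109 reads of the cornea counting as much as 102 of the limbus. Where a mean allowed several pairs of read numbers (11299 genes), the pair was taken that best met the log2 columns under a negative binomial model with a normal prior on the fold change. All 17442 genes were met to within 0.001, and for 24 another pair was nearly as close, Ppl among them. The dispersion of the model was fitted separately for each gene. On simulated data of limbus against cornea, 17046 of 17046 pairs were found. The simulated columns were made with the same model, so this checks the search only. It cannot tell whether the deposited columns follow that model.

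A ratio entered counts and medians only with more than 3 reads in both libraries. Where 1 library had 1 to 3 reads, a ratio is given with its interval for a few genes only. Against 0 reads a fold with 3 reads as the limit is given, which leaves out the counting error of the other library. The 95% interval of a ratio is the Clopper-Pearson (exact) interval of the limbal fraction of the reads, scaled by the size factors. Levels have an exact Poisson interval and ratios between genes a normal interval on the log scale. Intervals and limits cover counting error only. With 1 library per tissue, genes past 2-fold were counted and no test was made. Symbols found on more than 1 row were left out of the 13859 genes. Alternatives were scaling to total reads, a trimmed mean of M-values (30% and 5% trimmed), centring on shared epithelial genes, a pseudocount of 1, a threshold of 1.5-fold, means of at least 10 or 50, and transcript length. Exons are from GENCODE M21 and promoters from RefSeq.

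The 10 genes and all lists were chosen with earlier results of these data known. All 10 genes are named. The values of 1 gene of another list are not reported here. Of the other lists, genes averaging 50 or more were named, the 5 highest and then up to 5 past 2-fold with at least 10 reads in each library. Calculations used Python 3.11.15, numpy 2.4.6 and scipy 1.17.1.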

Additional observations from a re-analysis of the deposited data

How the results depend on the processing

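No paired analysis was possible because the columns of the table carry no numbered sample, and for the same reason leaving out a replicate was not run. Under the 3 other scalings, the counts of cornified envelope genes past 2-fold were 1 in each tissue as before. Under these and a pseudocount of 1, Sprr1a, Ivl, Tgm1 and Cnfn kept their direction. Scaling to total reads gave log2 ratios of 0.57 for Tgm1, 0.22 for Evpl and 0.02 for Ppl, and a median of 0.02. Centring on the shared epithelium list gave 1.66 for Sprr1a, −0.63 for Ivl, 0.62 for Tgm1, 0.27 for Evpl and 0.07 for Ppl, and a median of 0.07. The trimmed mean of M-values gave −0.17 for Ppl. The reversal of Ppl follows from the shift of all ratios, which is larger than its own. At a threshold of 1.5-fold, 2 genes were past it in the cornea, where 21.5% of all genes were. Scaling to total reads or centring on the epithelium list gave 2 proteases and inhibitors and 1 barrier lipid gene past 2-fold in the limbus, in place of 0, and 0 barrier lipid genes in the cornea, in place of 1. Transcription factors past 2-fold in the limbus were 2 after scaling to total reads and 3 after centring, and those in the cornea fell from 3 to 2 under both.

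The ratios rest on the pair of read numbers chosen for each gene. The mean alone would allow log2 ratios from −4.29 to 4.29 for Sprr1a, −3.14 to 5.34 for Ivl, −10.00 to 7.35 for Tgm1, −4.62 to 5.67 for Cnfn, −10.60 to 10.42 for Evpl and −13.75 to 10.21 for Ppl, so their directions come from the deposited log2 columns, through the model. With 1 library per tissue the spread between animals is unknown. Depth limits Tgm3, Sprr3, Lor and Sprr1b, for which a difference was not detectable.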
